A study of Betula luminifera with 2 samples.

Results

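In a degradome library of the birch Betula luminifera, most of the 5′ ends found on miRNA target transcripts lay away from the positions listed as miRNA cleavage sites. An end here is a transcript position at which at least 1 read starts. The ends described were all those more than 1 nt from every cleavage position that the authors' deposited table lists for the same transcript. They made up 9607 of the 9710 ends in the table and 130159 of its 138872 reads, which is 93.7% of the reads (exact Clopper-Pearson 95% interval 93.6 to 93.9%). The remaining 103 ends were the 69 listed positions and 34 direct neighbours, with 8713 reads. The members were thus chosen by where the authors placed cleavage, a placement that itself used the reads, so differences in reads between members and listed positions are descriptions and were not tested.

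The library came from seedlings of 1 clone (G49#) raised for 2 months in tissue culture. Root, stem and leaf RNA was combined, in amounts stated as equal for the companion small RNA library, and no treatment is named, so differences between organs or cell types cannot be told apart. There was 1 degradome library without replicates, so no tissue, condition or replicate could be compared and no p-value is given. Reads carry no molecular identifiers, so intervals cover counting error only. The table holds 64 transcripts of 218 to 5938 nt (median 1355.5 nt), which carry assembly names and no gene names, and 60 of them had at least 1 end away from a listed position.

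A degradome library captures the 5′ ends of uncapped polyadenylated RNA fragments. An miRNA bound to Argonaute cuts its target opposite the middle of the miRNA, and the 3′ fragment then begins at a fixed base. General turnover leaves such ends as well: decapped transcripts are digested from the 5′ end by exonucleases such as XRN4 in plants, endonucleases cut inside the transcript, and digestion that follows the last ribosome can leave ends one codon apart. The ends outside the cleavage sites are therefore usually treated as the background against which a cut is called.

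The listed sites of 7 transcripts are shown because the pattern of ends around them carries the main results. Each is the target strand from 5′ to 3′ as the table gives it, and the capitals mark the listed position with the most reads and 1 nt on either side, which were left out. On CL468.Contig5 a second position is listed 2 nt before the first, with 3 reads, so the 2 bases before its capitals were left out too. The ends described here lie under the other lower case letters or beyond the site.
CL468.Contig5, positions 2455 to 2476, listed for miR408: ggcucggggaaGAGgcagugca
Unigene24455, positions 44 to 64, listed for miR828: ggaauacccaUUUgaacaaga
Unigene12428, positions 353 to 372, listed for miR858: cagggcgaaCAGacaaugaa
Unigene8535, positions 613 to 632, listed for miR858: cagggcguaCAGacaacgag
Unigene15020, positions 58 to 77, listed for miR858: cggggagaaCAGacaaugaa
CL6517.Contig2, positions 512 to 533, listed for miR530: gcaggcugaagGUGcaaaugcg
Unigene456, positions 534 to 554, listed for miR168: agcgaguugaUGCaagguggg

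On the transcript of the miR408 site, whose family is known for cutting transcripts of copper proteins, the other ends lay almost wholly downstream of the cut. CL468.Contig5 is 3068 nt long and had 166 ends with 2065 reads away from the listed position 2467, against 1717 reads at that position. From 2 to 50 nt after it there were 40 ends with 656 reads, beyond that up to 100 nt 28 ends with 496 reads, up to 200 nt 43 ends with 521 reads, and up to 400 nt 35 ends with 258 reads. Per length this was 1339, 992, 521 and 129 reads per 100 nt, so the density was lower in each bin farther from the cut. Upstream there were 13 ends with 80 reads from 2 to 50 nt before the position and 1 end with 2 reads from 51 to 100 nt before it. The first end of the transcript was at position 2415, and none of its reads began in the 2414 nt before that, 78.7% of the transcript. A count of 0 there allows up to 3 reads, or 0.145% of the 2065.

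The miR828 site of Unigene24455 also had more reads after the cut than before it, on a shorter transcript of 298 nt. The family is known as a regulator of MYB transcription factors. There were 19 ends with 345 reads from 2 to 50 nt after the listed position 55, or 704 reads per 100 nt, and 17 ends with 289 reads from 51 to 100 nt after it. Beyond 100 and up to 200 nt there were 7 ends with 45 reads. Before the position, where 54 nt were available, 11 ends with 113 reads lay from 2 to 50 nt and 1 end with 4 reads beyond. The highest of these ends was at position 107, with 163 reads, against 1819 reads at the listed position.

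Unigene12428, with the third listed position of over 1000 reads, had the opposite arrangement. It is listed for miR858, also a regulator of MYB genes, with 1631 reads at position 363 of 863. Its 233 other ends held 2690 reads. From 2 to 50 nt after the position there were 24 ends with 95 reads, beyond that up to 100 nt 6 ends with 13 reads, and up to 200 nt 13 ends with 91 reads. Before it the same bins held 46 ends with 865 reads, 40 ends with 734 reads and 47 ends with 426 reads. Ends were thus sparse beyond the cut and dense up to it, at 194 reads per 100 nt in the first bin after and 1765 in the last bin before.

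**Figure D1:**
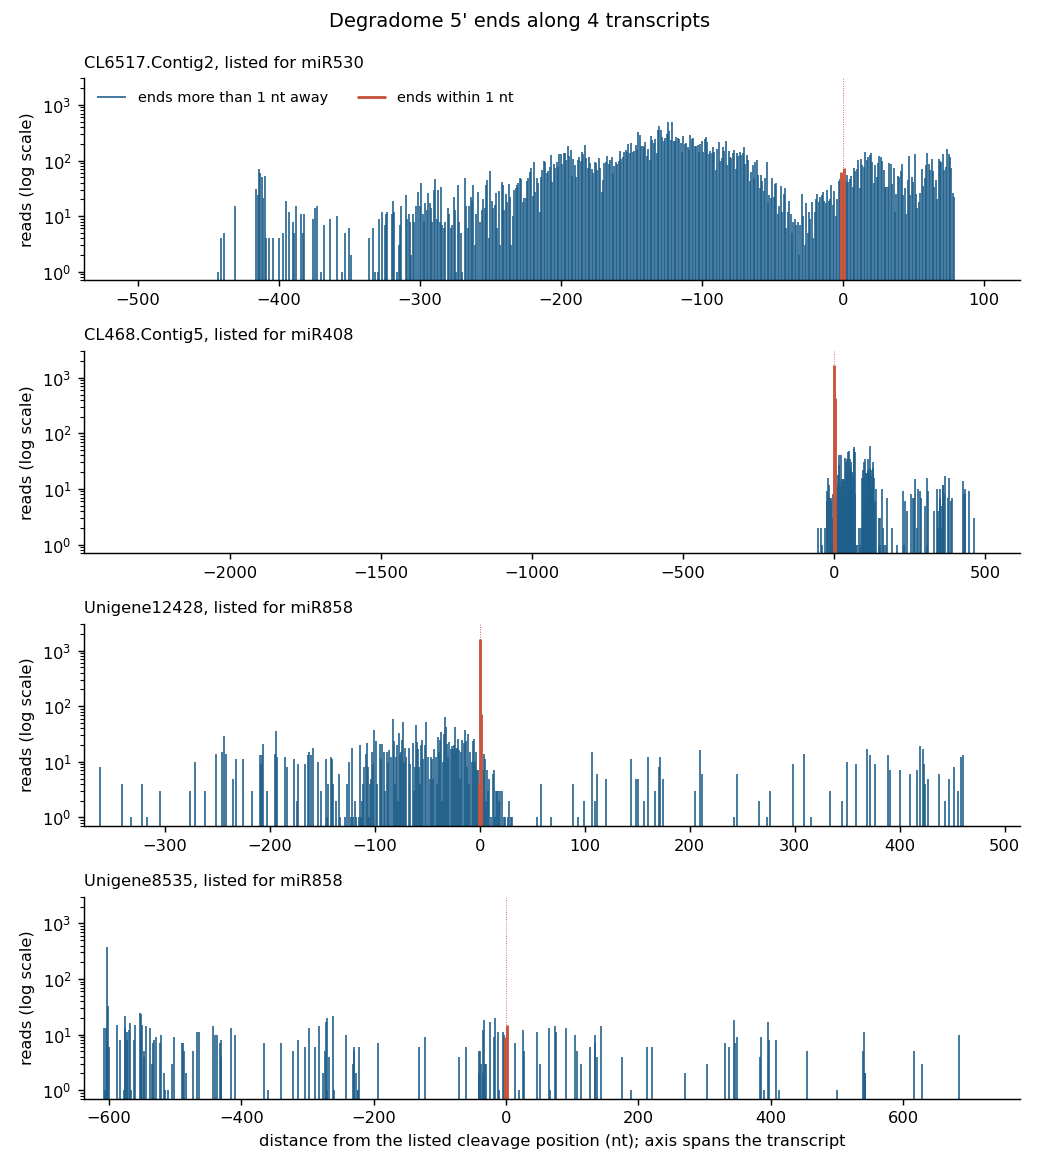
Reads (log scale) at each 5′ end along 4 transcripts, against the distance in nt from the listed cleavage position; blue lines are ends more than 1 nt away and red lines ends within 1 nt. On CL468.Contig5 nearly all blue lines lie after 0, on Unigene12428 most lie before it, CL6517.Contig2 is covered almost without gaps and led by an end 124 nt before its site, and Unigene8535 is led by 1 end 603 nt before its site.

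Across the series neither side of the site prevailed so strongly. Of the 43 transcripts with at least 20 such ends, 28 had more reads per 100 nt after the listed position with the most reads and 15 had more before it (65.1% after, exact interval 49.1 to 79.0%). The medians over these transcripts were 133 reads per 100 nt after and 99.3 before. The length after the position includes the last 32 nt of each contig, where no transcript had an end, which lowers the value after it. This weighs most where little sequence follows, as with 77 nt on Unigene8813 and 111 nt on CL6517.Contig2, both counted as denser before. How many transcripts would change side without that stretch was not tested. A difference of over 3-fold was found on 8 transcripts toward the 3′ side and on 5 toward the 5′ side. Among the 8, Unigene1511 had 0 reads over only 10 nt before its listed position, where a count of 0 allows up to 3 reads, so its side is not established. Transcripts of 1 library are not replicates, and the side goes with the position along the transcript, from which it cannot be told apart here.

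Some of the strongly one-sided transcripts had few reads at their listed position. Unigene7219 (2353 nt), listed for miR397, a family that targets laccases, had 287 reads after its listed position and 10 before it. It had no end from position 452 until position 967, 28 nt before that position. Unigene211, listed for a 3′ arm sequence of miR396, had 185 reads after position 699 and 4 before it. It had no end between positions 76 and 685, so that ends began again 14 nt before the listed position. On both, the gap that ended near the listed position was the widest of the transcript, 515 and 609 nt. The reads at the listed positions were 18 and 10. The other reads mostly began far from these positions. Ordered by position, the median read away from the listed position began at position 1862 on Unigene7219 and at position 1723 on Unigene211. Neither miRNA site held an end away from its listed position. Whether the side of the reads is tied to the cut was not tested. These transcripts were picked after their values were seen. On the other side stood CL5973.Contig1, listed for the candidates PC-5p-1370707_1 and PC-5p-446421_1. It had 399 ends with 5075 reads, all at or before position 1433, and 4 reads at its listed position 1500. No other end lay in the last 510 nt, 26.2% of the transcript, where a count of 0 allows up to 0.0591% of those reads. CL5973.Contig2 has the same site sequence with 4 reads at its listed position, none of which matched 1 place alone. The 4 reads may thus be the same on both contigs and cannot be assigned to 1 of them. CL275.Contig2, listed for miR6219, had 7 reads at position 1240, after a gap of 799 nt, and its other 601 reads at or before position 441.

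Close to the cut, the ends just inside and just outside the 1 nt limit differed as follows. At 2 to 3 nt from a listed position there were 69 ends with 1133 reads over 256 positions, a mean of 4.43 reads per position with empty ones included. At 4 to 10 nt the mean was 3.68 reads and at 11 to 50 nt 3.17 reads. Single transcripts weigh on these means: Unigene6267 alone had 82 of the 293 reads at 2 nt after and 56 of the 251 at 2 nt before. At 1 nt, just outside the members, 34 ends held 1085 reads, or 8.28 per position. The 69 listed positions held a mean of 111 reads but a median of 13, as the highest of them held 1819, 1717 and 1631. The excess at 1 nt was on the 3′ side: 815 reads lay 1 nt after and 270 reads 1 nt before. Of the 815, 441 were on CL468.Contig5. From 2 nt outward the reads per position stayed between 2.84 and 5.27 up to 8 nt on either side, on values that also vary from base to base.

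**Figure D2:**
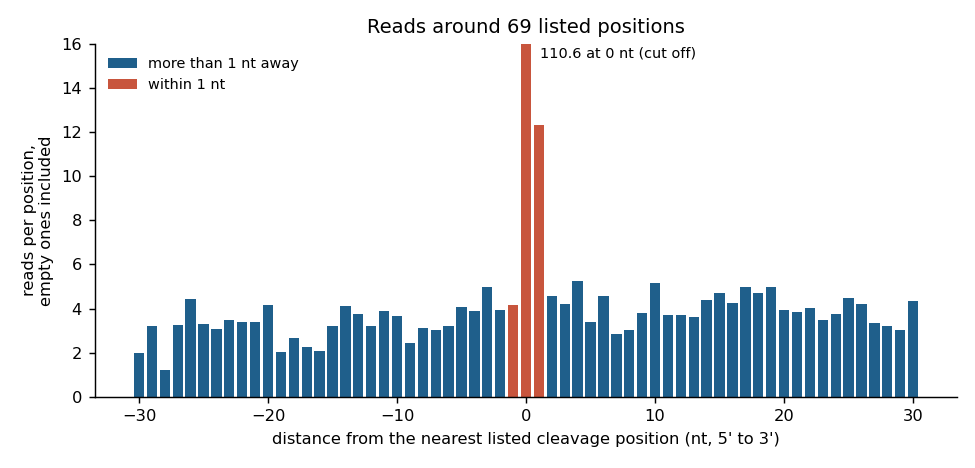
Mean reads per transcript position, empty ones included, by distance in nt from the nearest of the 69 listed positions; blue bars are distances of more than 1 nt and red bars distances of up to 1 nt, and the bar at 0 nt is cut off at the top of the axis. All blue bars lie below the mean of 12.3 reads at 1 nt after the position and the mean of 111 at the position itself, where the median is 13.

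Inside the aligned miRNA sites, 250 ends with 4179 reads lay more than 1 nt from a listed position, on 37 transcripts. The largest share was on Unigene6267, listed for miR394, a regulator of an F-box gene of leaf development. Of the 20 positions of its site, 17 were such ends and held 971 reads, against 98 reads at the listed position 540. The highest of them was position 535, with 92 reads, so the listed position did not stand out from those around it. On CL6517.Contig2 the site held 19 such ends with 694 reads, against 47 reads at the listed position. Other sites were empty around the cut. Of 17 transcripts with at least 50 reads at the listed position, 7 had no end in the site more than 1 nt from the listed position. These included the miR482 sites of CL2150.Contig3 and CL4332.Contig1, the miR319 site of CL6050.Contig2 and the miR159 site of Unigene184, with 211, 59, 84 and 81 reads at the listed position. CL1452.Contig1 and CL1452.Contig3 were also among the 7, and none of their reads matched 1 place alone. Of all 64 transcripts, 37 had such an end in the site, so the 7 of 17 without one is near the share over all. Some of the 7 had few ends anywhere, with 8 on Unigene184 and 3 on CL4332.Contig1.

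The ends away from cleavage sites were concentrated on few transcripts. CL6517.Contig2, listed for miR530, alone held 33038 of the reads, 25.4% of the total (25.1 to 25.6%), although it is only 635 nt long. It had ends at 434 positions, 68.3 per 100 nt, with a mean of 76.1 reads and a median of 47.5 reads per end. This came to 5203 reads per 100 nt, the highest density of any transcript. Its ends rose to a broad maximum with no single leader: positions 400 and 403 had 489 and 487 reads, position 394 had 410, and the middle 50% of its reads began between positions 367 and 449. Of the 10 ends with the most reads in the series, 9 were on this transcript, and of the top 100 ends 91 were. The listed position 524 lay outside this maximum, with 47 reads.

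The 10 transcripts with the most of these reads held 69.4% of them (69.1 to 69.6%). Unigene1, listed for a 5′ arm sequence of miR319, was second with 11150 reads at 671 ends over 2975 nt. The middle 50% of its reads began within 223 nt, between positions 1834 and 2057. Only 19.9% of its reads matched 1 place alone. Unigene6267 had 9305 reads at 349 ends over 1112 nt, with the middle 50% within 112 nt around its miR394 site. CL2530.Contig1, listed for a 3′ arm sequence of miR156, had 7573 reads at 782 ends, the largest number of ends, and 1 read at its listed position. CL4910.Contig1, the longest transcript with 5938 nt, had 7329 reads at 756 ends. It is listed for miR393, which targets auxin receptors, with 7 reads at position 5579, and 25% of its reads began between positions 3949 and 4061.

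Unigene4487, listed for miR156, a regulator of SPL genes, had 5887 reads at 578 ends. Its reads were the most spread of the first 10 transcripts, with the middle 50% over 1067 nt, or 44% of the length. CL5973.Contig1 followed with 5075 reads, of which the middle 50% began between positions 774 and 1340. The last of the 10 were CL2665.Contig1 and CL2665.Contig2 with 3882 and 3828 reads, and CL2836.Contig3, listed for miR482, with 3250 reads. At the low end, CL1452.Contig1 had 1 such end with 3 reads, or 0.517 reads per 100 nt. The 4 transcripts with none were Unigene25811, Unigene28625, CL5973.Contig2 and Unigene27322, whose listed positions held 18, 8, 4 and 1 reads. None of the 4 reads of CL5973.Contig2 matched 1 place alone.

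Contigs of one assembly cluster often carried the same ends. The members CL2665.Contig1 and CL2665.Contig2 had 343 ends in common after a shift of 180 nt, and all 343 had equal reads. CL3444.Contig1 and CL3444.Contig2 shared 209 ends with equal reads after a shift of 1324 nt, which is all ends of CL3444.Contig1 and 209 of the 271 of CL3444.Contig2. CL2836.Contig1 and CL2836.Contig3 shared 310 positions at their best shift, of which 280 had equal reads. The reads at such ends are thus counted on both contigs of a pair. Over all members, 75.7% of the reads (75.4 to 75.9%) matched 1 place alone, and 2734 of the 9607 ends had no such read.

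Along the transcript, the ends were most frequent a little past the middle and rare at both tips. With each transcript cut into 10 equal segments from 5′ to 3′, segment 7 held 26.1% of the reads (25.9 to 26.4%), against 3.13% in segment 1 and 4.50% in segment 10. Segment 6 held 17.2% and segment 5 held 12.6%. Segments 6 to 10 together held 68.5% of the reads (68.3 to 68.8%), but 61.3% without CL6517.Contig2. Counted once each, 58.0% of the ends lay there, and with the 44 transcripts of at least 100 reads weighted equally the share was 56.9%. Under each of these weightings segment 7 was the highest, with 21.1% of reads without CL6517.Contig2, 17.2% of ends and 14.7% at equal weights.

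**Figure D3:**
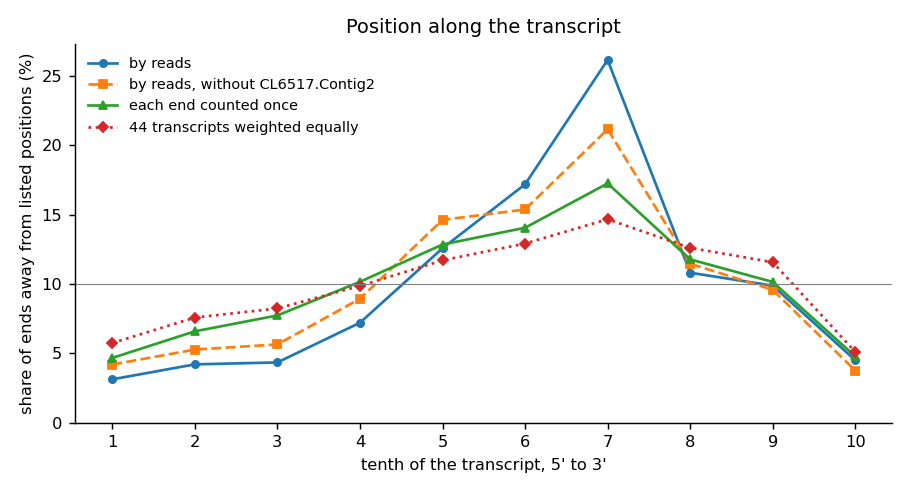
Share in percent of ends away from listed positions in each of 10 segments of the transcript, from 5′ to 3′, under 4 weightings; the grey line is an even 10%. Each line is highest in segment 7, at 14.7 to 26.1%, and low in segments 1 and 10.

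Single transcripts differed widely from that mean course. Of the 44 transcripts, 26 had more reads in segments 6 to 10 than in segments 1 to 5, with a median of 54.6%. The share ran from 0.752% on Unigene26060 to 100% on CL468.Contig5. CL6199.Contig2 (98.6%) and CL5726.Contig1 (96.8%) were nearly as high, and CL275.Contig2 (1.15%) and Unigene24455 (6.36%) nearly as low. No transcript had an end in its last 32 nt, with a median distance of 124.5 nt from the last end to the end of the contig. The last end was at position 603 of 635 on CL6517.Contig2 and at 2896 of 2928 on Unigene1531. A read has to fit on the contig to be placed, and whether reads could be placed in that stretch was not tested. The low share of segment 10, above all on short contigs, is therefore not read as a lack of ends there. At the other tip 3 transcripts had a member at position 1, and the median first end was at position 57.

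The typical end away from a cleavage site was not a lone read. The median was 8 reads (interval of the median 8 to 8), with quartiles of 4 and 14 and a mean of 13.5. Ends with a single read were 1101, or 11.5% (10.8 to 12.1%). By comparison the listed positions had a median of 13 reads (8 to 27). The top 10% of the member ends held 46.0% of the reads.

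Reads per end were higher on transcripts with denser ends, over a smaller range than the density itself. The 16 transcripts with under 2 ends per 100 nt had 173 ends on 18275 nt, and a median of 6 reads per end (4 to 7) with a mean of 6.16. The 13 transcripts with 2 to under 5 ends per 100 nt had a median of 6 and a mean of 6.84. In the class from 15 to under 30, with 15 transcripts and 20.1 ends per 100 nt over the class, the median was 8 (8 to 9) and the mean 11.2. The 3 densest transcripts, with 30 or more, had a median of 13 (12 to 14) and a mean of 31.9. Below that class, the number of ends per length differed more between transcripts than the reads per end. Among the 45 transcripts with at least 10 ends and under 30 per 100 nt, the ends per length spanned 30.1-fold and the mean reads per end 3.22-fold, from 5.17 to 16.6.

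Across the 48 transcripts with at least 10 ends, which share the library, Spearman's rho of the ends per 100 nt with the mean reads per end was 0.822, given as a description. Only the densest transcripts stood clear: CL6517.Contig2 with 76.1 and Unigene6267 with 26.7 mean reads per end, while CL2530.Contig1, as dense as Unigene6267 at 31.5 ends per 100 nt, had 9.68. Even the sparsest transcripts had single reads at only 17.9% of their ends.

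**Figure D4:**
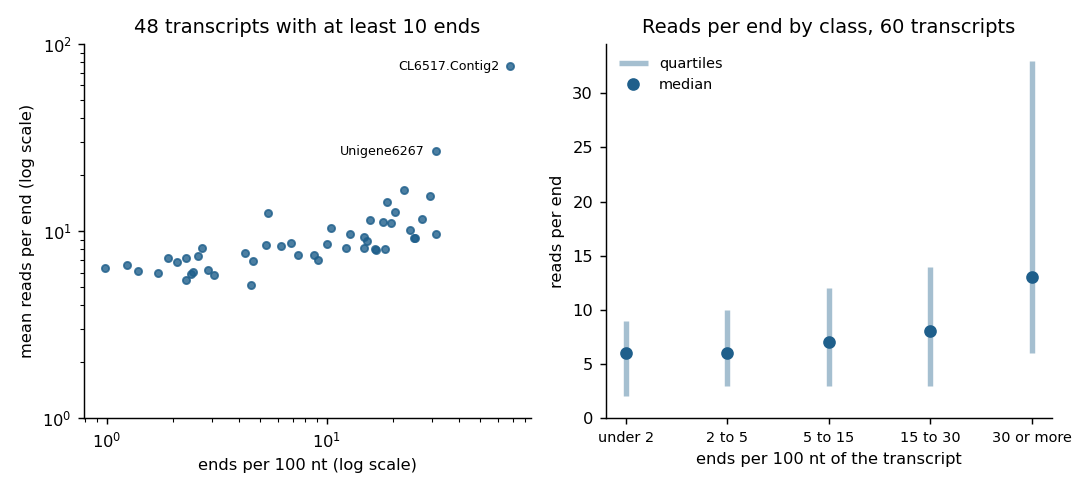
Left, mean reads per end against ends per 100 nt for 48 transcripts (1 point each, both axes log scale); right, median reads per end with quartile bars in 5 classes of ends per 100 nt over 60 transcripts. The left cloud rises with the density, with means of 5.17 to 16.6 below 30 ends per 100 nt, and the medians at right are 6, 6, 7, 8 and 13.

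Neighbouring ends were close together. Of 9547 gaps between an end and the next on the same transcript, 44.3% (43.3 to 45.3%) were 1 nt, the median was 2 nt and the upper quartile 5 nt. Gaps of over 50 nt were 2.65% (2.34 to 2.99%). The widest were 966 nt on Unigene5829, which had only 5 ends, 831 nt on CL6199.Contig2 and 799 nt on CL275.Contig2. Dense transcripts thus set the typical gap, while the median gap on CL6199.Contig2 with its 22 ends was 19 nt.

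Distances between ends showed no excess at multiples of 3 nt. Pairs of ends were counted by their distance from 1 to 30 nt. Distances that are multiples of 3 had a mean of 3972 pairs and the others 3997, a ratio of 0.994. Pairs at 2, 3 and 4 nt numbered 4145, 4125 and 4122. The correlation between positions of log2(reads + 1), taken per transcript over 44 transcripts, had a median of 0.189 at a lag of 2 nt, 0.183 at 3 nt and 0.171 at 4 nt. Lags that are multiples of 3 differed from the other lags by a median of -0.00739, within -0.0385 to 0.0270, and 14 of 44 transcripts had a positive difference. Multiples of 3 are on average longer than the other lags, and both pairs and correlation fall with distance. This alone lowers the difference and the ratio of pairs, so their sign is not read as a result. The median correlation was above that of both neighbouring lags at 9, 15 and 24 nt (0.166, 0.187 and 0.164). It was below both at 12 and 27 nt (0.150 and 0.135). The correlation fell slowly with the lag and was still 0.136 at 30 nt.

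The position phase was also compared between the parts of each transcript. Phases are the remainders of the position divided by 3, since the reading frame of the transcripts was not used here. For each transcript the span of its ends was split at its midpoint, the phase with the most reads was taken from the 5′ part, and its share was read in the 3′ part, which did not choose it. An even spread gives 33.3%. Over all 44 transcripts the chosen phase held 32.7% of 87243 reads in the 3′ part (32.4 to 33.0%), and 16 transcripts were above the even share. Among the 27 transcripts with at least 1000 reads the share ran from 27.3 to 39.0%. The lowest was on CL3444.Contig2 and the highest, of only 218 reads, on CL3444.Contig1. These contigs share 209 ends with equal reads, so this range does not show a difference between separate transcripts. The interval of the pooled share lies just below the even value. It also did so with reads divided by their matches, with reads that match 1 place alone and with 1 contig per assembly cluster, while the interval lay above the even value for ends of at least 2 reads (33.8%) and included it without CL6517.Contig2 (33.1%) and with each end counted once (33.5%). Transcripts with many reads departed from the even share in both directions. Of 19 transcripts with at least 1000 reads in the 3′ part, the interval lay above 33.3% on 6, below it on 10 and included it on 3. Unigene4487 had 37.5% of 4254 reads (36.0 to 38.9%), CL6517.Contig2 31.7% of 26924 (31.1 to 32.3%) and CL3444.Contig2 27.3% of 1821 (25.3 to 29.4%). Single ends hold many reads, so these intervals, which treat each read as separate, are too narrow.

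The transcripts farthest from an even share had fewer reads. The highest were CL275.Contig2 with 7 of 7 reads, all from 1 end, CL2150.Contig3 with 58.8% of 131 reads (49.8 to 67.3%), Unigene10101 with 48.5% of 66, Unigene1511 with 40.1% of 441 and Unigene5758 with 39.4% of 360. The lowest were Unigene26060 with 0 of 3 reads, CL831.Contig13 with 13.8% of 210, CL6199.Contig2 with 22.0% of 132, Unigene8813 with 22.1% of 86 and Unigene7232 with 23.0% of 187. On CL2150.Contig3, listed for miR482, the phase held 68.5% of the reads in the 5′ part, where it was chosen for leading. The 3′ part held only 16 ends. Lags that are multiples of 3 nt were no higher than others on this transcript, with a difference of -0.0101. Of its reads 44.5% matched 1 place alone. Whole contigs were used, and a period within coding stretches alone was not tested.

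**Figure D5:**
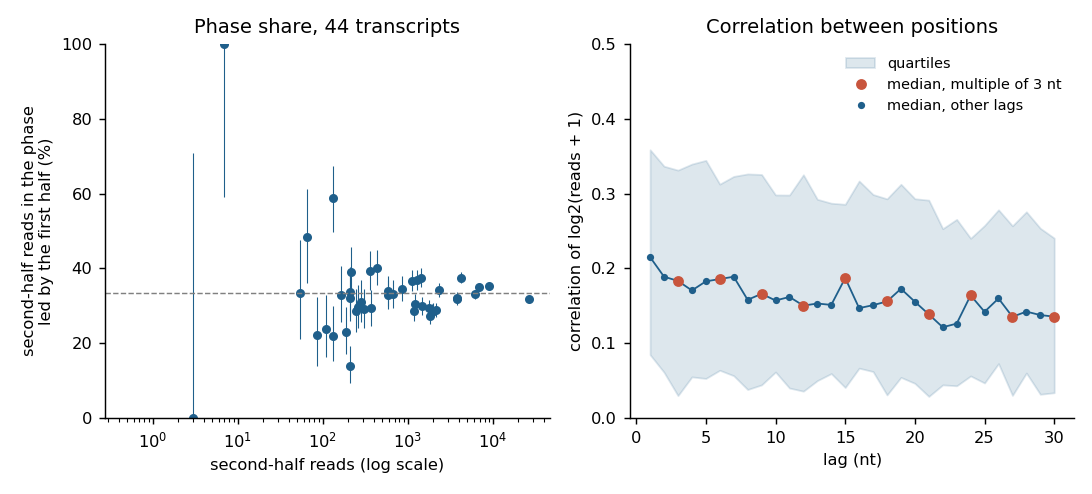
Left, share of reads in the 3′ part of the span that fall in the phase chosen in the 5′ part, against the reads there (log scale), 1 point per transcript with its exact 95% interval and a dashed line at an even 33.3%; right, median correlation of log2(reads + 1) between positions 1 to 30 nt apart, with quartiles over 44 transcripts. Points with many reads lie closer to the dashed line than those with few, on both sides of it. The red medians at multiples of 3 nt do not stand above the others throughout. They lie above both neighbours at 9, 15 and 24 nt and below both at 12 and 27 nt.

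Single peaks were rare among these ends. An end was called a peak where it held at least 20% of the reads of its transcript and at least 10 reads. This applied to 4 of the 9607 members (0.0416%, 0.0113 to 0.107%), to 18 of the 69 listed positions (26.1%, 16.3 to 38.1%) and to 0.227% of all ends in the table. Since the listed positions were chosen by the authors with reads in view, the contrast is a description. The denominators are also unlike. Only a few ends of a transcript can each hold 20% of its reads, so the share is low by the rule itself where members are many. By transcript, 3 of the 60 with members had a member that was a peak. On the 44 transcripts with at least 100 member reads, the highest member held a median of 2.57% of the transcript's reads, from 0.779% on CL2530.Contig1 to 24.0%. It was a median of 1.15 times the next highest, and more than 2 times as high on 4 transcripts.

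The 4 peaks were on 3 transcripts. The deepest was position 20 of Unigene8535, near the 5′ tip of a transcript of 1385 nt. Its 369 reads were 24.0% of the 1540 there (21.8 to 26.2%), all matched 1 place alone, and it lay 603 nt before the listed miR858 position with its 4 reads. It was not isolated: 6 other ends within 5 nt held 73 reads, the highest 33 reads at position 22. On Unigene15020, the other transcript with a weak miR858 site, position 103 with 15 of 61 reads had no other end within 5 nt, while position 148 with 13 reads was followed by position 149 with 11. Position 61, inside its miR858 site and 7 nt before the listed position, also had 11 reads, against 5 reads at the listed one. On Unigene456, listed for a 3′ arm sequence of miR168, position 447 had 14 of 25 reads (56%, 34.9 to 75.6%) and stood alone within 5 nt, 98 nt before the listed position.

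Just below the limits, positions 61 and 149 of Unigene15020 held 11 of 61 reads each, and position 102 of Unigene24020, listed for miR172, held 12 of 67 reads, or 17.9%. A total of 5 ends passed 20% with fewer than 10 reads, among them 3 ends of 8 or 9 reads on Unigene5829, which had 39 reads in all. The miR858 transcripts therefore differed in where their reads stood. Unigene12428 had most of them at the cut and before it. Unigene8535 had its highest end near its 5′ tip, with 24.0% of its reads, while its 145 ends ran from position 16 to 1307. On Unigene15020 the reads away from the listed position were spread over 6 ends.

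Categories 0 and 1 of the authors' deposited table, which gives each end a category, were rare among all ends and among the members. Over all 64 transcripts there were 53 ends of category 0 and 17 of category 1. Of the 53, 30 were members and 23 were listed positions. Both categories together held 44 of the members (0.458%) and 26 of the 69 listed positions, or 0.721% of all 9710 ends. With 70 such ends over 64 transcripts, their share is low wherever a transcript has many ends. The members of category 0 or 1 in the authors' deposited table lay on 37 transcripts. What defines a category is not stated in the labels, and the categories belong to the same profiles as the peaks. Their rarity is therefore no separate support for the rarity of single peaks. Most members were of category 2 (51.4%) or 3 (36.7%) in the authors' deposited table, and its 1101 members of category 4 were the ends with 1 read.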

How the data were processed

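Total RNA was extracted with Trizol, from root, stem and leaf, and the degradome library was made from poly(A) RNA with biotinylated random primers, per the labels' protocols. The labels do not state the aligner, its version or how categories are defined. The authors' deposited table has 108 blocks, each an alignment with a profile of the transcript. Its profile columns have no header. From the values they were read as position, raw read counts, counts shared among all matched places, counts of uniquely placed reads, and category. Counts were whole at all 9710 positions. The profiles of a transcript were identical in all its blocks, so 1 was kept, with every listed cleavage position. Reads were counted in full on each contig they match. Named transcripts were those with the most reads, the deepest ends, all peaks, and the extremes of phase share and density. Members, lists and tests were chosen with earlier results of these data known, and the density classes, bins around deep sites and gap examples after the values were seen. Shares have exact binomial intervals at 95%, medians binomial order intervals. With 1 library no test between samples was possible, and the small RNA table was not used here. The work used Python 3.11.15, NumPy 2.4.6, SciPy 1.17.1 and matplotlib 3.10.9.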

Additional observations from a re-analysis of the deposited data

How the results depend on the processing

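Of 55 alternative values, 26 stayed within the interval of the reported one or, for counts, within 1.5 times; the 29 others follow, and the cause was not tested. The share of reads away from listed positions was 92.9% with reads divided by their matches, 92.0% with reads that match 1 place alone, 93.4% with 1 contig per assembly cluster and 91.9% without CL6517.Contig2. It was 94.5%, 92.1% and 90.5% with limits of 0, 5 and 10 nt. Within 10 nt of a listed position, members held 33.7% of the reads, and 32.1%, 30.3%, 32.3% and 30.3% under the first 4 of these settings, all added after seeing the data. The median of reads per end was 6 when reads were divided. The share in segments 6 to 10 was 68.0% with divided reads, 70.2% with 1 contig per cluster, 61.3% without CL6517.Contig2, 58.8% also without Unigene1 (added after seeing the data), 58.0% with each end counted once and 56.9% at equal weights. Gaps of 1 nt were 43.0% among ends of at least 2 reads. The phase share was 33.1% without CL6517.Contig2, 33.8% for ends of at least 2 reads, 33.5% by ends and 33.1% at equal weights. The 4 peaks became 9 with reads that match 1 place alone, 18 at a limit of 10%, 8 at 5 reads and 1 at 50%. Reads that match 1 place alone were 81.2% with 1 contig per cluster and 67.7% without CL6517.Contig2 (both added). The share of transcripts denser after the site stayed between 62.5 and 66.7%, with the last 32 nt of each contig counted throughout. No paired analysis was possible because there is 1 library. With no replicates, the intervals cover counting error alone. Those for shares of reads treat each read as separate and are too narrow where single ends hold many reads. The spread between seedlings is unknown.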
